A study of Mus musculus with 4 samples.

Results

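The genes described here are the fibroblast growth factor (FGF) ligands, their receptors, and genes that transmit or restrain the FGF signal, in mouse embryos with and without Ddx6. They were chosen by symbol: every Fgf gene named by a number, Fgfr1 to Fgfr4, Fgfrl1, the adaptor Frs2, and the feedback genes Spry1, Spry2, Spry4, Spred1, Spred2, Dusp6, Etv4 and Etv5. This gave 36 of the 24421 genes in the count table, namely 22 ligand genes, 5 receptor genes and 9 others. Of these, 29 had at least 10 reads in at least 1 library and were compared. The other 7 (Fgf2, Fgf6, Fgf7, Fgf20, Fgf21, Fgf22 and Fgf23) never had more than 3 reads, and Fgf6, Fgf20 and Fgf21 were at 0 in all 4 libraries. Counts of 3 or fewer were treated as the floor, where a gene cannot be told from 0.

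FGF ligands are secreted proteins that bind tyrosine kinase receptors together with heparan sulfate. The receptors act through the adaptor FRS2 and the Ras-ERK cascade, and ERK signalling induces genes whose products either damp the cascade (Sprouty and Spred proteins, and the ERK phosphatase DUSP6) or carry its transcriptional output (the ETS factors ETV4 and ETV5). Around gastrulation FGF signalling is needed for cells to leave the primitive streak, for mesoderm formation and for patterning of the posterior body and the brain.

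Messenger RNA of whole ICR mouse embryos was sequenced in 4 libraries: 1 of wild-type embryos at embryonic day 7.5 (E7.5 WT), 1 of wild-type embryos at embryonic day 8.5 (E8.5 WT), and 2 of Ddx6 -/- embryos at embryonic day 8.5 (KO1 and KO2). Ddx6 encodes an RNA helicase of processing bodies that acts in translational repression and in silencing by microRNAs (miRNAs). The mutant allele lacks a floxed exon that was removed by a cross with the CAG-Cre deleter line. Both KO libraries were pools of embryos: KO1 held embryos from before and after head-fold formation, and KO2 held embryos from before it, so embryo stage and library cannot be told apart within the KO group. No sources used here say how many embryos made up each WT library.

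Depth ran from 8198402 counts (KO1) to 12562640 (E8.5 WT), with 16511 to 17112 genes detected. Values listed as 4 numbers follow the order E7.5 WT, then E8.5 WT, then KO1, then KO2. Ddx6 (chr9:44602983-44640731 in GRCm38, plus strand) had 2943, 5715, 706 and 929 reads in that order, and the KO libraries were below E8.5 WT, at log2 differences of -2.47 and -2.61. The summed level of 4 epiblast markers (Pou5f1, Nanog, Utf1, Dnmt3b) was 2022, 519, 704 and 2853 CPM (reads scaled to a common library size). The summed level of 5 trophoblast markers was 32.6, 0.895, 2.14 and 460 CPM in the same order, with Tpbpa and Prl3b1 at 0 in every library, and that of 4 maternal decidua markers was 138, 12.4, 23.9 and 130 CPM. That of 4 neural plate markers was 3.28, 73.2, 33.1 and 6.07 CPM, that of 4 cardiac markers 17.1, 152, 53.7 and 38.2 CPM, and that of 4 presomitic mesoderm markers 85.3, 73.2, 88.8 and 28.2 CPM. Those of visceral endoderm were 2057, 1375, 640 and 734 CPM, of parietal endoderm 671, 651, 762 and 826 CPM, and of extraembryonic ectoderm 237, 121, 73.4 and 127 CPM. Of that last list, Sox2, which neural and epiblast cells also express, had 51.0, 107.6, 56.3 and 96.3 CPM, while Elf5 had 66.8, 0.244, 0.357 and 0.821, Esrrb 44.7, 3.01, 2.62 and 2.71, and Tfap2c 73.9, 10.01, 14.1 and 27.4 CPM. The libraries thus differed in their tissue markers. KO2 stood apart from the other 3 in its summed trophoblast markers, whereas in its summed epiblast and decidua markers it was nearest to E7.5 WT. Single markers did not all follow these sums. Prl3d1 and Prl2c2 were highest in KO2, whereas Ascl2 had 30.1 CPM in E7.5 WT and 4.431 CPM in KO2. Of the decidua markers, Prl8a2 had 110.8 CPM in E7.5 WT and 117.6 CPM in KO2. In Cryab and Dcn, KO2 (8.863 and 1.641 CPM) was nearest to E8.5 WT (8.299 and 1.871 CPM). In whole embryos, fewer cells of a type and less RNA per cell cannot be told apart.

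Library sizes were scaled with edgeR's TMM factors, and a difference between 2 libraries is given on the log2 CPM scale, computed with a prior count of 2. Genes were called higher or lower when that difference was above 1 or below -1. Brackets after a log2 difference give its 95% Clopper-Pearson interval, which covers counting error only. No p-value goes with these calls, because only 1 library represents each WT stage. E8.5 WT is the shared control of both KO comparisons, so their values are not independent. Against E8.5 WT, 1 of 29 members was higher in both KO libraries (Fgf5), near the 3.44% of all 14393 genes, and 2 were lower in both (Fgf17 and Fgf18), where 1.79% of all genes were. Fgf18 passed the count minimum only through E8.5 WT, where it was highest, so its call gives no support to that count. Taking KO1 by itself, 2 members were higher (Fgf5 and Fgf12, the latter kept only through its KO counts, beside 4.97% of all genes) and 5 were lower (Fgf8, Fgf17, Fgf18, Spry1 and Dusp6, beside 3.31%). Taking KO2 by itself, 2 were higher (Fgf5 and Fgf10, beside 9.41%) and 3 were lower (Fgf9, Fgf17 and Fgf18, of which Fgf9 and Fgf18 were kept only through E8.5 WT, beside 5.91%). The median of the 29 members was 0.04 in KO1 and -0.23 in KO2, beside -0.01 and -0.00 over all genes.

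**Figure D1:**
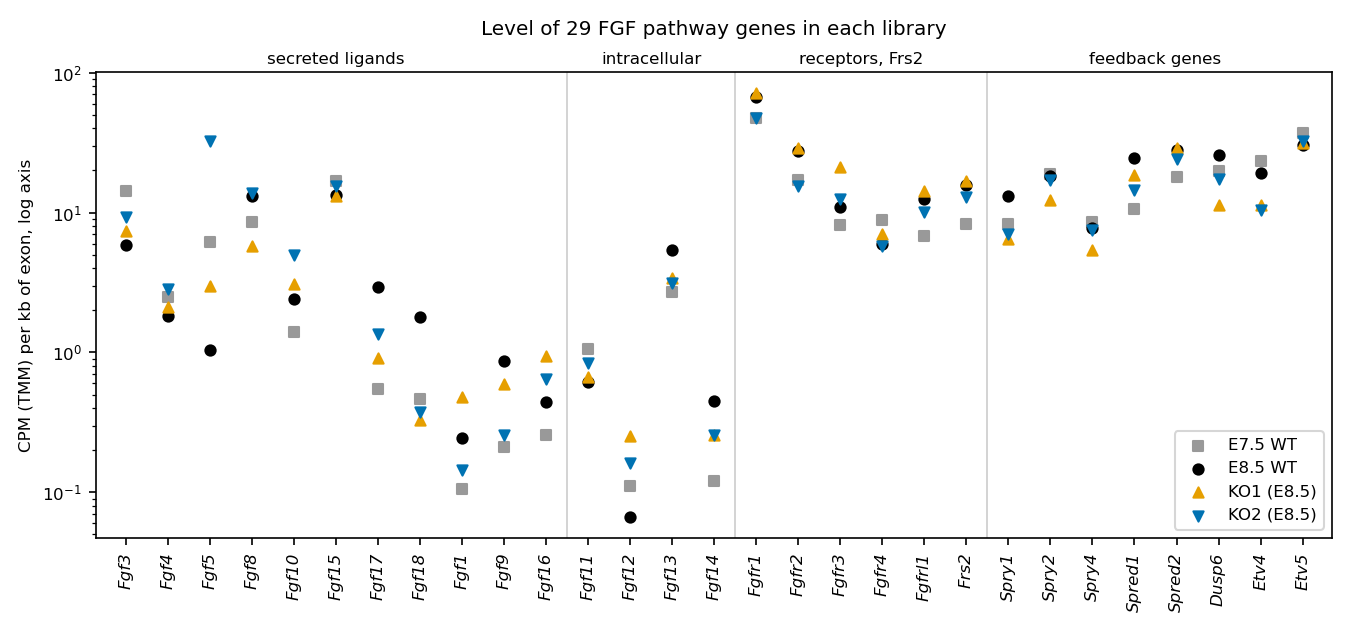
Level of each of the 29 members in each library, in TMM-scaled CPM per kb of annotated exon on a log axis, with 1 point per library and genes ordered by role. Fgfr1 was the highest (47.1 to 71.3 CPM per kb), and Fgf5 spread the most, from 1.04 CPM per kb in E8.5 WT to 32.6 in KO2.

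The edgeR quasi-likelihood test of both KO libraries against E8.5 WT took its spread from the KO libraries alone and so assumed that a WT library varies as they do. It called 0 of 29 members at an adjusted p under 0.05, and 0 of all genes. DESeq2 also called 0 members, and 31 of all genes. It left the adjusted p of 8 members undefined, Fgf17 and Fgf18 among them, so these could not be called. At an unadjusted edgeR p under 0.05, 5 members passed, where 7.3% of all genes did, and all 5 were lower. Their unadjusted edgeR p was 0.0414 for Fgf18, 0.0107 for Spry1, 0.0419 for Spred1, 0.0427 for Dusp6 and 0.00937 for Etv4, and the adjusted p was 0.665 for each. That of Fgf18, kept through E8.5 WT alone, is no support. The number that passed depended on the setting. By DESeq2 it was 2, where 508 of 14393 genes passed: Fgf5 (higher, unadjusted p 0.0469) and Dusp6 (lower, 0.0331). By edgeR with no filter it was 6, with Fgf5 (0.0181) among them, where 1449 of 18427 genes passed. By edgeR with a minimum of 50 counts it was 2, where 864 of 11942 genes passed, and Dusp6 was at 0.0504. For the 9 members that were above E8.5 WT in both KO libraries, the unadjusted edgeR p ran from 0.0792 (Fgf5) through 0.133 (Fgf3), 0.156 (Fgf12), 0.159 (Fgf10) and 0.162 (Fgfr3) to 0.642 (Fgf11). Nothing in the sources says whether the embryos of different libraries came from different litters, so the p-values measure only the spread between these samples.

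The ligand genes were described first, and those of the FGF4 subfamily held the largest difference. Fgf5 (chr5:98254184-98277033, plus strand) is a marker of the primed epiblast that is normally switched off as gastrulation proceeds. It had 184 reads in E7.5 WT, only 32 at E8.5, 63 in KO1 and 994 in KO2. It was lower at E8.5 than at E7.5 in WT (-2.49 [-3.16, -2.02]), and both KO libraries lay above E8.5 WT, by 1.46 [0.89, 2.19] in KO1 and 4.88 [4.46, 5.53] in KO2. The mean was 3.17 ± 2.41 (SD, n = 2). KO1 was below the E7.5 WT level (-1.03) and KO2 above it (2.38 [2.17, 2.63]), and the KO libraries differed from each other by 3.41 [3.07, 3.83], more than KO1 differed from E8.5 WT. The order of the libraries by Fgf5 level ran from E8.5 WT through KO1 and E7.5 WT to KO2. It was also their order by the summed epiblast markers, whose part in the Fgf5 difference was not tested. Of these markers, Dnmt3b, the largest part of the sum, and Pou5f1 had this order, whereas Nanog and Utf1 did not. Nanog was level in E7.5 WT and KO1 (23.37 and 23.46 CPM). Utf1 was level in E8.5 WT and KO1 (5.045 and 5.001 CPM) and higher in E7.5 WT (149.5 CPM) than in KO2 (111.7 CPM).

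The 250 bases before the annotated start of Fgf5 (chr5:98253934-98254183, GRCm38.p6, plus strand, from RefSeq) are shown because Fgf5 was the member that differed most. ETV4 and ETV5 belong to the ETS family, whose motifs share the core GGAA, and the longer motif CCGGAA was searched on both strands. The 250 bases of Fgf5 hold 1 match, TTCCGG, given in capitals and starting 241 bases before the start of transcription.

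Fgf5 promoter: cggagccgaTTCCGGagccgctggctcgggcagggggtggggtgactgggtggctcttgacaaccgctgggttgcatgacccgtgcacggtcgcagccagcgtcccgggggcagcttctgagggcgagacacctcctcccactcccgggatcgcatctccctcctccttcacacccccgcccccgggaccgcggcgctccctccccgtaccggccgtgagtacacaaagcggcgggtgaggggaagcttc

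This motif lay in a promoter of 13.6% of the 27025 genes of the RefSeq table (12.0% of its 32851 promoters) and of 5 of the 27 members found there (Fgf5, Fgf12, Fgfr4, Fgfrl1 and Frs2). A match is a description of the letters and not a site.

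Fgf4, which is expressed in the primitive streak, had 89, 68, 54 and 104 reads. After scaling, KO1 lay between the WT libraries and KO2 above both, and only the interval in KO2 was above 0 against E8.5 WT (0.61 [0.17, 1.09], beside 0.21 [-0.33, 0.75] in KO1).

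The FGF8 subfamily had lower values in the KO libraries for 2 of its 3 genes. Fgf8 (chr19:45736491-45742941, minus strand), which is required for cells to move away from the primitive streak, had 138, 217, 65 and 226 reads. KO1 was below E8.5 WT, at -1.17 [-1.61, -0.78], whereas KO2 was at its level (0.07 [-0.20, 0.35]), and the KO libraries differed by 1.24 [0.86, 1.68]. Fgf8 thus had no shared direction in the KO group.

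Fgf17 (chr14:70636203-70642268, minus strand), a midbrain and hindbrain patterning ligand that is also expressed in the streak, had 11, 61, 13 and 28 reads in the same order. It was higher at E8.5 than at E7.5 in WT (2.22 [1.49, 3.50]), and both KO libraries lay between the WT stages and were below E8.5 WT, at -1.57 [-2.67, -0.80] in KO1 and -1.05 [-1.81, -0.44] in KO2 (mean -1.31 ± 0.37, SD, n = 2). Fgf18 (chr11:33116970-33147400, minus strand), a ligand of skeletal and lung development, had 6, 24, 3 and 5 reads. KO1 was at the floor of 3 reads, and the differences from E8.5 WT were -1.99 [-4.83, -0.73] and -1.86 [-4.00, -0.83]. At 24 reads or fewer, these intervals were wide, and a minimum of 50 reads drops the gene. The summed neural plate and cardiac markers were also highest in E8.5 WT, and their part in the Fgf17 and Fgf18 values was not tested.

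Among the FGF7 subfamily, Fgf10 (chr13:118714699-118792573, plus strand), a mesenchymal ligand of limb and lung buds, had 69, 122, 106 and 250 reads. Both KO libraries were above E7.5 WT past the threshold (1.10 and 1.79), whereas against E8.5 WT KO1 differed by 0.34 [-0.04, 0.73] and KO2 by 1.03 [0.73, 1.37]. Fgf3, a ligand of the early hindbrain, inner ear and tail bud, had 387, 166, 142 and 262 reads. It was lower at E8.5 than at E7.5 in WT (-1.26 [-1.54, -1.002]), and the KO libraries differed from E8.5 WT by 0.32 and 0.66 and from E7.5 WT by -0.94 and -0.59, between the WT stages on both counts.

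Fgf15, an endocrine ligand expressed in the embryonic brain and gut and the mouse counterpart of human FGF19, had 364, 295, 198 and 340 reads. It differed little between libraries (-0.03 [-0.29, 0.24] in KO1 and 0.22 [-0.01, 0.45] in KO2, both against the E8.5 WT level) and had the highest level per kb of exon among the secreted ligands in every library but KO2, at 16.9, 13.3 and 13.0 CPM per kb in the first 3. The remaining secreted ligands were scarce. Fgf1 had 5, 12, 16 and 7 reads, Fgf9 had 4, 17, 8 and 5, and Fgf16 had 5, 9, 13 and 13. Most of their counting intervals against E8.5 WT held 0, with the exception of Fgf9 in KO2 (-1.41 [-3.55, -0.26]).

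The 4 intracellular FGFs, which are not secreted and bind voltage-gated sodium channels, were described apart. Fgf13 (chrX:59062139-59585572, minus strand) had 95, 197, 84 and 112 reads, and was below E8.5 WT by similar amounts in KO1 (-0.67 [-1.07, -0.30]) and KO2 (-0.79 [-1.15, -0.46]) and close to E7.5 WT (0.32 and 0.20). Fgf14 had 6, 23, 9 and 13 reads (-0.71 and -0.72 against E8.5 WT), Fgf11 had 38, 23, 17 and 31 (0.10 and 0.41), and Fgf12 had 8, 5, 13 and 12 (1.56 and 0.99). The intervals of Fgf11 and Fgf14 held 0 in both KO libraries and that of Fgf12 in KO2.

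**Figure D2:**
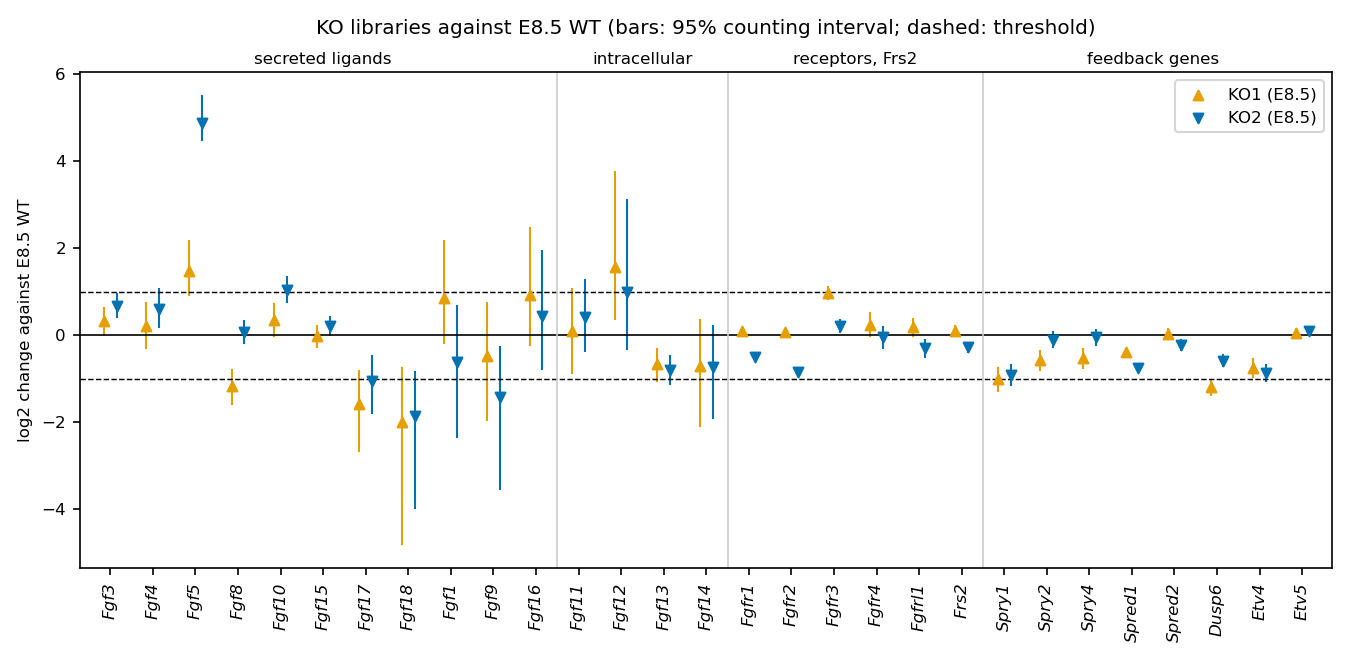
Log2 difference of KO1 and KO2 from E8.5 WT for each of the 29 members, ordered by role, with bars for the 95% counting interval and dashed lines at the threshold of 1. Fgf5 lies above the threshold in both KO libraries and Fgf17 and Fgf18 below it, the 5 receptors lie above 0 in KO1 and 4 of them below 0 in KO2, and Spry1, Dusp6 and Etv4 lie below 0 in both.

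Levels of different genes can be compared only per length, so each ligand's share of the summed level of the secreted ligands was taken in CPM per kb of annotated exon. The summed CPM of the secreted ligands was 106, 83.6, 81.5 and 184. Per kb, Fgf5 made up 12.1%, 2.38%, 7.98% and 39.9% of secreted ligand transcripts, and in KO2 it was the most abundant. Fgf8 made up 16.8%, 29.9%, 15.3% and 16.8% in the same order, and Fgf15 33.0%, 30.3%, 34.7% and 18.9%. Fgf8 and Fgf15 were thus close in E8.5 WT, whereas Fgf15 led in KO1 and Fgf5 in KO2. The shares rest on annotated exon lengths and carry no replicate error.

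**Figure D3:**
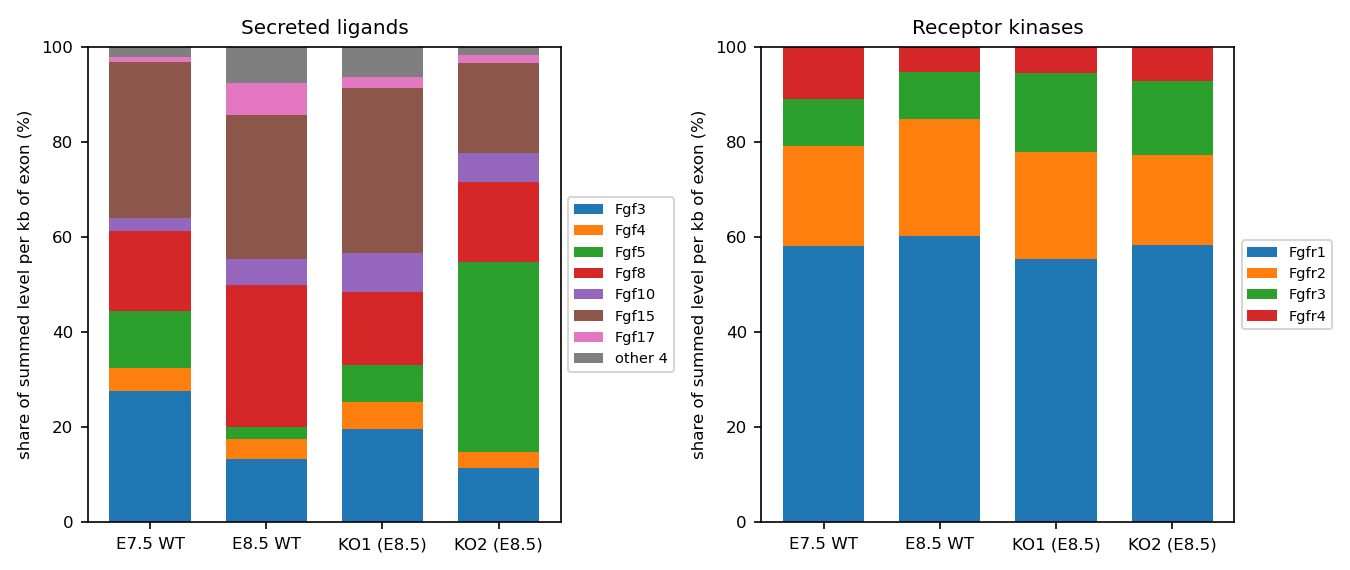
Share (%) of each secreted ligand (left) and each receptor kinase (right) in the summed level per kb of exon, with 1 bar per library. Fgf5 takes 39.9% of ligand transcripts in KO2 against 2.38% in E8.5 WT, and Fgfr3 takes 16.6% and 15.5% of receptor transcripts in KO1 and KO2 against 9.91% and 9.78% in the WT libraries.

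Of all members, Fgfr1 had the highest level per kb of exon in every library. Fgfr1 (chr8:25518759-25575718, plus strand), the main receptor of the epiblast and the nascent mesoderm, had 2839, 4141, 3010 and 2884 reads, and its level per kb was above that of 87.8% to 93.7% of 13902 genes. Fgfr2 (chr7:130162451-130266808, minus strand), which serves surface ectoderm and extraembryonic ectoderm, had 976, 1623, 1162 and 899 reads. Against E8.5 WT, KO1 differed little for both (0.09 [0.02, 0.16] and 0.07 [-0.04, 0.18]), whereas KO2 was lower for both (-0.51 [-0.58, -0.44] and -0.84 [-0.96, -0.72]). KO2 was close to E7.5 WT instead (-0.01 and -0.15).

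Fgfr3 (chr5:33721724-33737068, plus strand), a receptor of neural progenitors and cartilage, had 423, 589, 788 and 672 reads. It was higher than E8.5 WT by 0.97 [0.81, 1.13] in KO1 and 0.20 [0.04, 0.36] in KO2 (mean 0.58 ± 0.54, SD, n = 2), and was the only receptor above E8.5 WT in both, although with plain CPM Fgfr4 also came to lie above it in KO2. Fgfr3 was also above E7.5 WT in both (1.40 and 0.63). Fgfr4 had 352, 242, 196 and 232 reads and was within counting error of E8.5 WT in both KO libraries (0.24 [-0.03, 0.52] and -0.05 [-0.32, 0.22]). Fgfrl1, a receptor without a kinase domain, had 208, 397, 309 and 320 reads (0.19 and -0.30 against E8.5 WT). Frs2, which links the receptors to Ras, had 632, 1232, 905 and 1007 reads (0.10 and -0.28).

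All 5 receptors were lower in KO2 than in KO1, as were 46.8% of all genes, with a median of -0.60 beside 0.02 over all genes. Each of the 5 counting intervals lay below 0, as did 19.1% of those of all genes. In KO2 the summed presomitic mesoderm markers (28.2 CPM, beside 88.8 in KO1), neural plate markers (6.07, beside 33.1) and cardiac markers (38.2, beside 53.7) were also lower. The summed trophoblast markers were higher (460, beside 2.14). Of the cardiac markers, Myl7 went against the sum, at 27.98 CPM in KO2 and 22.39 CPM in KO1. The part of these tissues in the receptor values was not tested. With TMM scaling, no receptor passed the threshold in either KO library against E8.5 WT, although Fgfr3 in KO1 (0.97) was close to it. The share of Fgfr3 in the receptor kinases differed less between the KO libraries: per kb it was 9.91%, 9.78%, 16.6% and 15.5%. As a share of the reads of the 4 receptor kinases it was 9.22% (8.39% to 10.1%), 8.93% (8.25% to 9.65%), 15.3% (14.3% to 16.3%) and 14.3% (13.4% to 15.4%), so the intervals of the KO libraries lay above those of the WT libraries. Fgfr1 held 55.5% to 60.2% of the receptor level per kb in every library, and Fgfr4 held 10.9%, 5.32%, 5.46% and 7.10%.

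The feedback genes were on the low side in the KO libraries. Of the 8, 6 were below E8.5 WT in both (as were 37.6% of all genes), and 4 had counting intervals below 0 in both (Spry1, Spred1, Dusp6 and Etv4), as had 15.7% of all genes. With plain CPM, Spry4 in KO2 turned to the other side of 0. The medians were -0.55 in KO1 and -0.41 in KO2, and the summed level was 482, 592, 458 and 459 CPM. The summed visceral endoderm markers of each KO library were also below those of either WT library, with Amn in KO2 above its E8.5 WT level, and their part was not tested.

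Spry1 (chr3:37639947-37644599, plus strand), a Sprouty inhibitor of the Ras-ERK cascade, had 246, 402, 136 and 212 reads. Both KO libraries were lower than either WT library and alike, at -1.01 [-1.30, -0.73] and -0.90 [-1.16, -0.67] against E8.5 WT (mean -0.96 ± 0.07, SD, n = 2). Against E7.5 WT the differences were smaller, at -0.35 [-0.67, -0.04] and -0.25 [-0.52, 0.02], and the interval of KO2 held 0. Spry2 had 469, 471, 216 and 435 reads and Spry4 had 486, 455, 215 and 436. For both, KO1 was lower than E8.5 WT (-0.57 [-0.81, -0.34] and -0.53 [-0.77, -0.29]), whereas KO2 was at its level (-0.10 [-0.29, 0.09] and -0.05 [-0.24, 0.14]).

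Dusp6 (chr10:99263231-99267489, plus strand), the ERK phosphatase that is a common readout of FGF signalling, had 657, 889, 264 and 587 reads. It was below E8.5 WT, at -1.20 [-1.41, -1.002] in KO1 and -0.58 [-0.74, -0.43] in KO2 (mean -0.89 ± 0.43, SD, n = 2), and only KO1 passed the threshold. Spred1, another inhibitor of Ras activation, had 849, 2030, 1054 and 1199 reads, and both KO libraries lay between the WT stages (-0.40 and -0.75 against E8.5 WT, 0.81 and 0.46 against E7.5 WT). Spred2 had 609, 988, 689 and 835 reads and was nearer to E8.5 WT (0.03 and -0.23).

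Etv4 (chr11:101769747-101785310, minus strand), an ETS factor induced by FGF signalling, had 664, 562, 229 and 306 reads. The KO libraries were below E8.5 WT, at -0.74 [-0.97, -0.52] and -0.86 [-1.07, -0.66] (mean -0.80 ± 0.08, SD, n = 2) and below E7.5 WT, at -1.03 [-1.26, -0.81] and -1.15 [-1.35, -0.96]. Its relative Etv5 had 1754, 1479, 1041 and 1578 reads and stayed within 0.11 of E8.5 WT (0.04 and 0.11), although the difference between the 2 genes was not tested. Etv5 was among the more abundant members, at 30.3 to 37.1 CPM per kb.

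**Figure D4:**
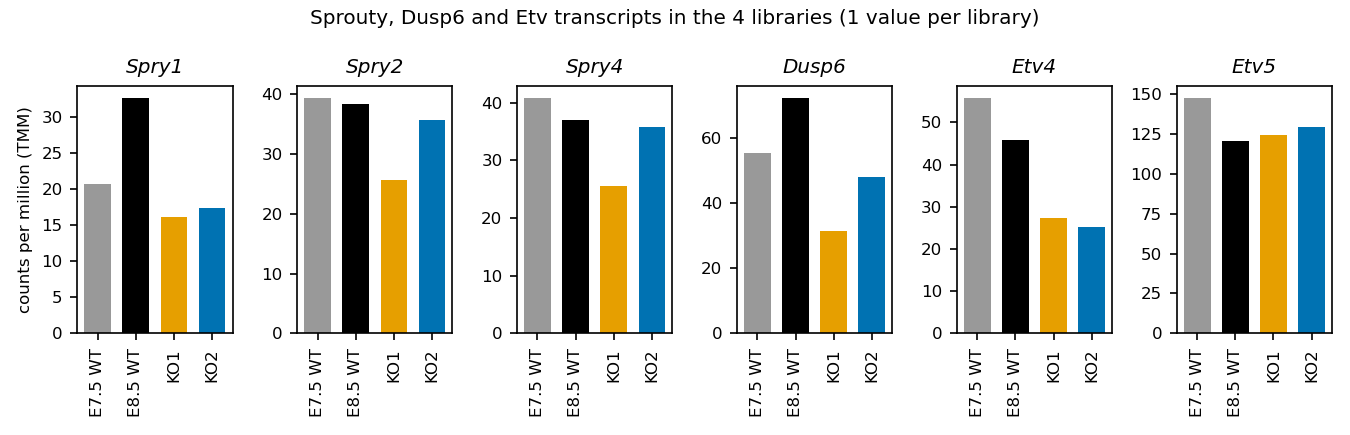
TMM-scaled CPM of the Sprouty genes, Dusp6, Etv4 and Etv5, with 1 bar per library and axes from 0. Spry1 (16.2 and 17.4 CPM) and Etv4 (27.3 and 25.1 CPM) are below both WT libraries in KO1 and KO2, Spry2 and Spry4 are lower in KO1 (25.7 and 25.6 CPM) than in KO2 (35.7 and 35.8 CPM), and Etv5 lies between 120.3 and 147.5 CPM.

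The 250 bases before the starts of Fgf18 (chr11:33147401-33147650, minus strand), Spry1 (chr3:37639697-37639946, plus strand) and Dusp6 (chr10:99262981-99263230, plus strand) in GRCm38.p6, from RefSeq, are shown as examples of genes whose counting intervals lay below 0 in both KO libraries. None of the 3 holds CCGGAA on either strand, which says only that these letters are not in the window. The shorter ETS core GGAA was not searched. The windows of Spry1 and Dusp6 do hold it, and that of Fgf18 holds it on the other strand, as TTCC. The GC content is 77.2%, 62.4% and 56.4%, beside 70.8% for Fgf5.

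Fgf18 promoter: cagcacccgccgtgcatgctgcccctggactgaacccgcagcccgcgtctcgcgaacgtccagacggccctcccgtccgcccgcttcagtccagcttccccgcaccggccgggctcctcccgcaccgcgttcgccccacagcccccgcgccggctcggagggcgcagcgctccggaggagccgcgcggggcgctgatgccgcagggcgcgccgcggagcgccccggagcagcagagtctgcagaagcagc
Spry1 promoter: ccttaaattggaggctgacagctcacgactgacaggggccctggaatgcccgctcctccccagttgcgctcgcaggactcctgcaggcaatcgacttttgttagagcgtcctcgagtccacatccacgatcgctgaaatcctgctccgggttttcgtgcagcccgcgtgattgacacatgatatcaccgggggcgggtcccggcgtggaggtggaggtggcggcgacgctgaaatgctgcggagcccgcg
Dusp6 promoter: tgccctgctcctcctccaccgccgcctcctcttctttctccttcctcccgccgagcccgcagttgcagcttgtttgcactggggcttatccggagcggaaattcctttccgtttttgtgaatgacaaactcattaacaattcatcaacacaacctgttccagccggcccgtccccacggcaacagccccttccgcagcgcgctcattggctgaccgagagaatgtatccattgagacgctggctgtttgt

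Since the study describes the KO embryos as developmentally delayed, E7.5 WT served as a second reference. Both KO libraries were above it past the threshold for 2 members (Fgf10 and Fgf16), where 6.91% of all genes were, and below it for 1 (Etv4), where 2.7% were. Fgf16 rested on 5 to 13 reads and passed the minimum only through the KO libraries, so its call is no support, and with plain CPM Etv4 no longer passed the threshold in both. All 6 of the Sprouty, Dusp6 and Etv genes were below E7.5 WT in both KO libraries, as were 38.2% of all genes, and the intervals of Spry4, Dusp6, Etv4 and Etv5 lay below 0 in both, as did those of 23.6% of all genes. Of the 6, Spry1 and Dusp6 were higher at E8.5 than at E7.5 in WT (0.66 and 0.39), and in the KO libraries these were below both WT stages. For Spry1 in KO2 the interval against E7.5 WT held 0. In the edgeR test against E7.5 WT, 0 members passed the adjusted threshold and 8 had an unadjusted p under 0.05, where 24.4% of all genes did. These were Fgf3, Fgf10, Fgfr3, Fgfrl1, Frs2, Spred1, Spred2 and Etv4, of which Etv4 had the lowest p (0.00303 unadjusted, 0.128 adjusted, edgeR). The lowest adjusted p by DESeq2 was 0.0816, for Etv4, and that of 8 members was undefined.

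Between the WT stages, 5 members were higher at E8.5 (Fgf9, Fgf14, Fgf17, Fgf18 and Spred1), where 12.2% of all genes were, and 2 were lower (Fgf3 and Fgf5), where 7.82% were. Fgf9 and Fgf18 passed the count minimum only through E8.5 WT, so their calls give no support to the count of higher members. Spred1 was the only one of the 5 with over 100 reads in a library (1.21 [1.09, 1.33]). There was 1 library per stage, so this comparison has no replicate check. Between the KO libraries, 2 members were higher in KO2 (Fgf5 and Fgf8), where 5.99% of all genes were, and 1 was lower (Fgf1, with 16 and 7 reads), where 4.89% were.

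Other genes of the pathway were taken from lists. Of 23 co-receptors, proteoglycans and heparan sulfate enzymes, 21 passed the count minimum. Past the threshold in both KO libraries, 0 were below E8.5 WT, beside 1.79% of all genes, and 1 was above it, beside 3.44%. This was Fgfbp1, a secreted protein that releases FGFs from heparan sulfate, which had 249, 7, 23 and 25 reads (1.96 [0.999, 3.73] and 1.58 [0.60, 3.30]). The medians of this list were 0.06 and -0.13. Of 22 genes of the Ras-ERK cascade, all passed the minimum and 0 passed the threshold in both KO libraries, beside the same shares of all genes. The medians were -0.08 and -0.11.

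Of 21 other ERK-responsive and feedback genes, 20 passed the minimum. In both KO libraries 0 passed the threshold, beside 3.44% of all genes higher and 1.79% lower. The medians were -0.34 and -0.14. By edgeR, 0 genes of the 3 lists passed the adjusted threshold against E8.5 WT. In the order of the lists above, 2, 0 and 2 had an unadjusted edgeR p under 0.05, where 7.3% of all genes did. By DESeq2, 0 passed against E8.5 WT, where 31 of all 14393 genes did.

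With E7.5 WT as the reference, where 6.91% of all genes were higher and 2.7% lower in both KO libraries, 4 genes of the first list were higher (Sdc2, Sdc3, Gpc6 and Hs6st2) and 2 lower (Sdc4 and Fgfbp1). Hs6st2, a heparan sulfate sulfotransferase, had 138, 539, 621 and 596 reads (2.65 and 2.06), so that both KO libraries and E8.5 WT were above E7.5 WT. Sdc4, a cell-surface proteoglycan, had 951, 560, 271 and 372 reads (-1.30 and -1.38). In the Ras-ERK list 0 were higher and 0 lower, and in the third list 2 were higher (Flrt2 and Cbl) and 2 lower (Ier3 and Myc). The list medians were 0.47 and 0.40, 0.09 and 0.04, and -0.20 and 0.10 in KO1 and KO2, beside 0.02 and 0.07 over all genes. DESeq2 called 5, 3 and 5 genes of the lists against E7.5 WT, where it called 721 of all 14393 genes, and edgeR called 0, 0 and 0. At an unadjusted edgeR p under 0.05, 12, 13 and 4 genes passed, where 24.4% of all genes did. A few further genes of the lists were chosen after their values were seen. Dusp4, an ERK phosphatase like Dusp6, had 857, 1416, 639 and 817 reads (-0.60 [-0.74, -0.46] and -0.78 [-0.91, -0.66]). Myc, a growth factor response gene, had 1112, 898, 262 and 521 reads (-1.22 [-1.43, -1.03] and -0.77 [-0.93, -0.62]), so that both KO libraries were below both WT libraries. Fosl1, an AP-1 factor that is also expressed in trophoblast giant cells, had 42, 2, 2 and 230 reads and was high in KO2, the library in which the trophoblast marker Prl3d1 had 4156 reads against 27, 1 and 3 in the others. The part of trophoblast in this was not tested.

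DDX6 acts with miRNAs, and the miR-290 and miR-302 families are the abundant miRNAs of the early mouse embryo. The 3′ UTRs of the members were therefore searched for a seed that some miRNAs of both families share. Others of these families, such as miR-290a-3p (AAGUGCC) and miR-302c-3p (AGUGCUU), are listed with other seeds, which were not searched. Of the mature sequences available here, from RefSeq, those with the seed AAGUGCU (bases 2 to 8, in capitals) are shown. The sequence of miR-302a-3p was not among those available.

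mmu-miR-291a-3p: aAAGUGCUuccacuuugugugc
mmu-miR-294-3p: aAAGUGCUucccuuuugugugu
mmu-miR-295-3p: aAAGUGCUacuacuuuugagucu
mmu-miR-302b-3p: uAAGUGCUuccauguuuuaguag
mmu-miR-302d-3p: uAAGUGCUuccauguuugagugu

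The matching site AGCACTT was present in the annotated 3′ UTRs (GENCODE M21) of 3 of 29 members, Fgf4, Fgf10 and Spred1, and of 16.6% of 13341 genes. The sites are shown with the match in capitals and lie 52, 481 and 2932 bases after the stop codon.

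Fgf4: ccctcaggaggAGCACTTtctctcgatgg
Fgf10: atttactggaaAGCACTTgggtcatatca
Spred1: ggaagaattgaAGCACTTtttccttacac

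The genes with a site did not share a direction against E8.5 WT: Fgf10 was at 0.34 in KO1 and 1.03 in KO2, Fgf4 at 0.21 and 0.61, and Spred1 at -0.40 and -0.75. Over all genes, the medians were -0.02 and -0.07 with a site and 0.00 and 0.01 without one. The levels of the miRNAs themselves were not analysed here.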

How the data were processed

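Raw counts per gene from 4 mRNA libraries of whole embryos (KAPA stranded kit) were deposited by the authors without normalization. Their methods name trimming with Cutadapt 2.8; reads were then checked with FastQC 0.11.7, aligned to mm10 with HISAT2 2.1.0, sorted with SAMtools 1.9 and counted over exons by strand with featureCounts 2.0.0. Strand-specific counting keeps antisense reads apart, and counting over exons mixes isoforms.

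The samples were grouped by their titles. A gene needed 10 or more counts in some library to be kept (14393 of 24421), TMM factors came from edgeR 4.0.16 (R 4.3.3), and log2 CPM used a prior count of 2. The threshold of 1 on the log2 scale follows the study's methods. Quasi-likelihood tests (edgeR, two-sided, all 4 libraries in 3 groups, Benjamini-Hochberg over all kept genes, adjusted p threshold 0.05) and DESeq2 1.42.0 were fitted on the whole table. Adjusted p-values that DESeq2 left undefined were kept so. The scripts were tested on simulated data.

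The genes named are Ddx6, every member above the minimum, and list genes called against E8.5 WT in KO1 and also KO2. Members under the minimum are named only, and markers come from fixed lists. Dusp4, Myc, Fosl1, Gpc4, Fgfbp3, the list genes called against E7.5 WT, and the chromosomal neighbours Ccnd1 and Ano1 fall outside this, their values being known when they were chosen. The members and lists were chosen with earlier results of these data known. Gene positions are from RefSeq (GRCm38.p6), and exon lengths (for 95.7% of genes) and 3′ UTRs from GENCODE M21 of the same assembly. Promoters matched 27 of 36 members. The settings varied were the scaling (DESeq2 size factors or plain CPM), the count minimum (none or 50), a prior count of 0.5, a threshold of 2, leaving out each KO library, and fits of only the libraries compared. Intervals cover counting error only, as PCR copies were not marked by molecular identifiers and reads need not be separate molecules. Computation used Python 3.11.15, SciPy 1.17.1 and matplotlib 3.10.9.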

Additional observations from a re-analysis of the deposited data

How the results depend on the processing

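Counts of called members were small, so single genes moved them. With plain CPM, 2 members (Fgf12 added) were above E8.5 WT in both KO libraries, and 0 were lower than E7.5 WT in both, since Etv4 no longer passed. A minimum of 50 counts left 1 member lower than E8.5 WT, 1 higher than E7.5 WT, 2 higher at E8.5 than at E7.5 in WT, and 0 lower in KO2 than in KO1, because fewer genes were tested. With a prior count of 0.5, 2 members were higher than E8.5 WT in both KO libraries and 2 were lower in KO2 than in KO1. With a threshold of 2, 0 members were higher and 0 lower than E8.5 WT in both KO libraries, and 0 and 0 than E7.5 WT, 1 (Fgf17) was higher and 1 (Fgf5) lower at E8.5 in WT, and 1 (Fgf5) was higher and 0 lower in KO2 than in KO1. DESeq2 size factors turned no direction, and plain CPM turned only Fgf15 in KO1 and Fgfr4 and Spry4 in KO2 against E8.5 WT and Fgfr1 in KO2 against E7.5 WT, each within 0.05 of 0. Leaving out a KO library gave 2 to 2 members higher and 3 to 5 lower than E8.5 WT, since the call then rests on 1 library. Without KO1 3 were lower than E8.5 WT, and without KO2 5 were. Against E7.5 WT, leaving out a KO library gave 4 to 8 higher and 1 to 2 lower. The share of all genes was not counted for 1 KO library against E7.5 WT, so these counts have no background beside them. Of the 8, Fgf12 and Fgf16 passed the count minimum only through the KO libraries.

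With no filter, the edgeR test against E7.5 WT called 1 member (Etv4, adjusted p = 0.0366; 0.128 to 0.131 with the other edgeR settings), and the test against E8.5 WT called 0 members under every setting. The edgeR tests could not be run without a KO library, as no residual degrees of freedom are left. Not divided by length, the share of Fgfr1 in the receptor kinases was 61.9%, 62.8%, 58.4% and 61.5% in the usual order, that of Fgfr3 8.93%, 15.3% and 14.3% in the last 3, and that of Fgfr4 7.67%, 3.67%, 3.801% and 4.95%. No paired analysis was possible because each WT stage had 1 library with no replicate number. Depth limits Fgf1, Fgf9, Fgf12, Fgf14, Fgf16 and Fgf18, which had at most 24 reads.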

Other observations

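Fgf3, Fgf4 and Fgf15 lie within 62.3 kb of each other on chromosome 7 (144838612 to 144900953 in GRCm38.p6), next to Ccnd1, a cyclin of the cell cycle that is often regulated by growth factors, and to the chloride channel gene Ano1. In WT, Fgf3 was lower at E8.5 than at E7.5 by -1.26 on the log2 scale, Fgf4 by -0.42 and Fgf15 by -0.35, whereas Ccnd1 (1655, 3156, 1807 and 2163 reads) and Ano1 (41, 90, 60 and 64 reads) were higher by 0.88 and 1.05. Against E8.5 WT, KO2 differed by 0.66 for Fgf3, 0.61 for Fgf4, 0.22 for Fgf15, -0.53 for Ccnd1 and -0.47 for Ano1. In KO1 these were 0.32, 0.21, -0.03, -0.25 and -0.03. With 1 library per WT stage, the neighbours were not tested against each other.

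Gpc4, a heparan sulfate proteoglycan of the cell surface, had 310, 300, 316 and 1437 reads, which was 0.62 and 2.26 above E8.5 WT in KO1 and KO2. Fgfbp3, a secreted FGF-binding protein, had 17, 149, 64 and 26 reads, or -0.66 and -2.41 against E8.5 WT. Both were chosen after their values were seen, and in both KO2 stood further from E8.5 WT than KO1 did.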
